A study of Mus musculus with 4 samples.

Results

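The 9 genes Hlf, Mecom, Gata2, Mycn, Runx1, Tal1, Lmo2, Erg and Gfi1b, which encode transcription factors of blood stem cells, were followed in single sorted haematopoietic stem cells (HSC) of mouse bone marrow. They were taken by gene symbol, and all 9 were found among the 24411 gene rows of each count table. The cells came from Mat KO mice (2 libraries, with 44 and 48 cells) and from wild-type (WT) mice (2 libraries, with 48 cells each). Mat KO is the labels' name for the genotype. The series title places the study at the Dlk1-Gtl2 imprinted locus, and which bases the knockout lacks, the mice's strain and their age are not given in the sources used here. A cell was kept if at least 1000 genes had a UMI, a tag that marks 1 cDNA made from the poly(A) end of an RNA, and 188 cells were kept. Nothing in the labels says that a genotype's 2 libraries are of different mice, so every p-value below measures the spread between libraries, which may be technical.

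Transcription factors of this group hold HSC in an undifferentiated, self-renewing state and are then turned down or reused as cells enter a lineage. Tal1 (a basic helix-loop-helix protein), Lmo2 (a LIM-domain bridge that binds no DNA itself), Gata2 (a zinc finger protein that binds GATA motifs), Runx1 (a Runt-domain protein) and Erg (an ETS-domain protein) can sit together on enhancers of blood progenitors, with Fli1 and Lyl1, and are known jointly as the heptad. Hlf (a PAR bZIP factor) and Mecom (a zinc finger protein also known as Evi1) mark the most primitive HSC, Mycn is a MYC family activator of growth genes, and Gfi1b is a repressor that recruits the Lsd1 and CoREST complex and is needed in erythroid and megakaryocytic cells.

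In mm10 (GRCm38, GENCODE annotation) all 9 are protein-coding genes. Hlf lies on chromosome 11 at 90336536 to 90390895 (minus strand), Mecom on chromosome 3 at 29951296 to 30548008 (minus), and Gata2 on chromosome 6 at 88193891 to 88207032 (plus). Mycn lies on chromosome 12 at 12936093 to 12941914 (minus), the chromosome of the Dlk1-Gtl2 locus, and Runx1 on chromosome 16 at 92601466 to 92826149 (minus), where Erg also lies at 95359169 to 95586593 (minus). Tal1 is on chromosome 4 at 115056426 to 115071755 (plus), Lmo2 on chromosome 2 at 103957986 to 103981878 (plus), and Gfi1b on chromosome 2 at 28609450 to 28621982 (minus).

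The promoters of 4 members are shown because Hlf varied with Mecom and Gata2 across cells while Runx1 did not follow Hlf or Gata2. Each runs from 250 bases before to 50 bases after a RefSeq start site in GRCm38.p6, 5′ to 3′ on the gene's own strand. They lie at chr11:90390868-90391167 (minus, Hlf), chr3:30509710-30510009 (minus, Mecom), chr6:88193641-88193940 (plus, Gata2) and chr16:92826025-92826324 (minus, Runx1). Capitals mark matches to 6 motifs, each searched on both strands.
Hlf promoter: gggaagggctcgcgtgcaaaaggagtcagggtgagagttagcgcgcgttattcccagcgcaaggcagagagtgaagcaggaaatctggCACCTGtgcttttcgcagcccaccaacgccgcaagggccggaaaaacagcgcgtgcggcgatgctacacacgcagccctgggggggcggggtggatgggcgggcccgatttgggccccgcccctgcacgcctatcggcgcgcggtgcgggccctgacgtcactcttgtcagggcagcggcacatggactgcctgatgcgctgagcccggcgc
Mecom promoter: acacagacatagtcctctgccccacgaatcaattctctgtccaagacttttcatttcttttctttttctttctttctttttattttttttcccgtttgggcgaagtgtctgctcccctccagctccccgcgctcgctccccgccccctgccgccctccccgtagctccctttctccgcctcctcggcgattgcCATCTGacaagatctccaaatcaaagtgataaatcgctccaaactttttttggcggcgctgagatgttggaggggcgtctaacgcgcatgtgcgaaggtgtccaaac
Gata2 promoter: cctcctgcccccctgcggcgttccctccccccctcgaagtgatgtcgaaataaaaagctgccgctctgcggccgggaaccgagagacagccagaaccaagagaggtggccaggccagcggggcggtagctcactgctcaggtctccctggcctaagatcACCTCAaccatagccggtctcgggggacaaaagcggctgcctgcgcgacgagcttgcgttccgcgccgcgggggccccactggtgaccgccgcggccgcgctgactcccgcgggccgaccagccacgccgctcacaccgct
Runx1 promoter: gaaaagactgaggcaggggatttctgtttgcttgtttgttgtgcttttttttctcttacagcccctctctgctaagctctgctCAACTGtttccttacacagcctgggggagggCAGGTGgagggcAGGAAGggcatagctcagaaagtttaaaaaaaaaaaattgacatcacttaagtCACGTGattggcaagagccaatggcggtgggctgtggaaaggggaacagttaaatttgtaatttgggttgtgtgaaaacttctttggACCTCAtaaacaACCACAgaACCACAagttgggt

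The motifs were AGATAA for GATA factors, AGGAAG for ETS factors, TGNGGT for RUNX factors, CAGNTG for the E-box that Tal1 complexes bind, CACGTG for the MYC E-box and TTACNTAA for PAR bZIP factors. Of all 32851 RefSeq promoter windows of the same length, 11.2% held the GATA motif, 35.4% the ETS motif, 45.8% the RUNX motif, 51.4% the Tal1 E-box, 7.15% the MYC E-box and 2.32% the PAR bZIP motif. The Hlf and Mecom windows held 1 Tal1 E-box each, at 162 and 57 bases before the start site, and the Gata2 window held 1 RUNX motif 91 bases before it. The Runx1 window held 3 RUNX motifs, 17, 29 and 37 bases after the start site, with 2 Tal1 E-boxes, 1 ETS motif and 1 MYC E-box before it. No 2 matches overlapped. Mecom, Gata2 and Runx1 have a second RefSeq window each, not shown: that of Gata2 held a Tal1 E-box 18 bases after its start site, and those of Mecom and Runx1 held no match. A match is a run of letters and was not tested for binding.

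Depth differed between the genotypes. Summed over kept cells, Mat KO libraries 1 and 2 held 1900319 and 1768647 UMIs, against 3183279 and 3253608 in WT libraries 1 and 2. The median cell held 33612.5 and 27845 UMIs in Mat KO against 53092.5 and 51437 in WT, so shares of cells are also given with cells thinned to 8877 UMIs. This left out 19 cells with fewer UMIs and kept 38 and 41 cells in Mat KO against 46 and 44 in WT. Meg3, a maternally expressed noncoding RNA of the Dlk1-Gtl2 locus, stood at 18.4 and 32.8 CPM (UMIs per 1000000 UMIs of the library) in Mat KO against 52.8 and 47.0 CPM in WT (log2 fold change -0.93, SE 0.55; edgeR adjusted p = 0.729), and since the deleted bases are not given this does not check the genotype. Markers of other blood lineages also differed. The summed granulocyte and monocyte list (19 genes, 16 to 19 of them detected in each library) stood at 5794 and 5005 CPM in Mat KO against 1369 and 669 CPM in WT, and the summed erythroid list stood at 774 and 794 CPM in Mat KO against 1235 and 2153 CPM in WT, with all 5 globin genes of that list at 0. The summed stem cell list had all 19 genes detected in every library, at 2061 and 2615 CPM in Mat KO against 3086 and 2468 CPM in WT. Cells with at least 1% of their UMIs in a granulocyte and monocyte, B-lymphoid or erythroid list numbered 5 and 4 in Mat KO against 4 and 2 in WT. The other 173 cells are called lineage-low below. The lineage marker cells held 19.5% and 12.9% of the UMIs of the Mat KO libraries against 5.95% and 6.82% of the WT libraries. Their part in the results was not tested except by leaving such cells out.

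Transcripts of the 9 factors made up 0.145% and 0.177% of UMIs in Mat KO libraries, against 0.190% and 0.147% in WT libraries. No member passed edgeR's quasi-likelihood test between Mat KO and WT, where 8 of 10663 genes tested passed (0.075%; all 8 higher and none lower in Mat KO). At an unadjusted p under 0.05 the test counted 834 genes (7.82%), and Gfi1b was the single member among them. CPM values of the 2 genotypes did not overlap for 3 of 9 members, against 39.1% of all genes tested, so the members stood near the background. Those 3 were Gfi1b and Tal1, lower in Mat KO, and Erg, higher in Mat KO.

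**Figure D1:**
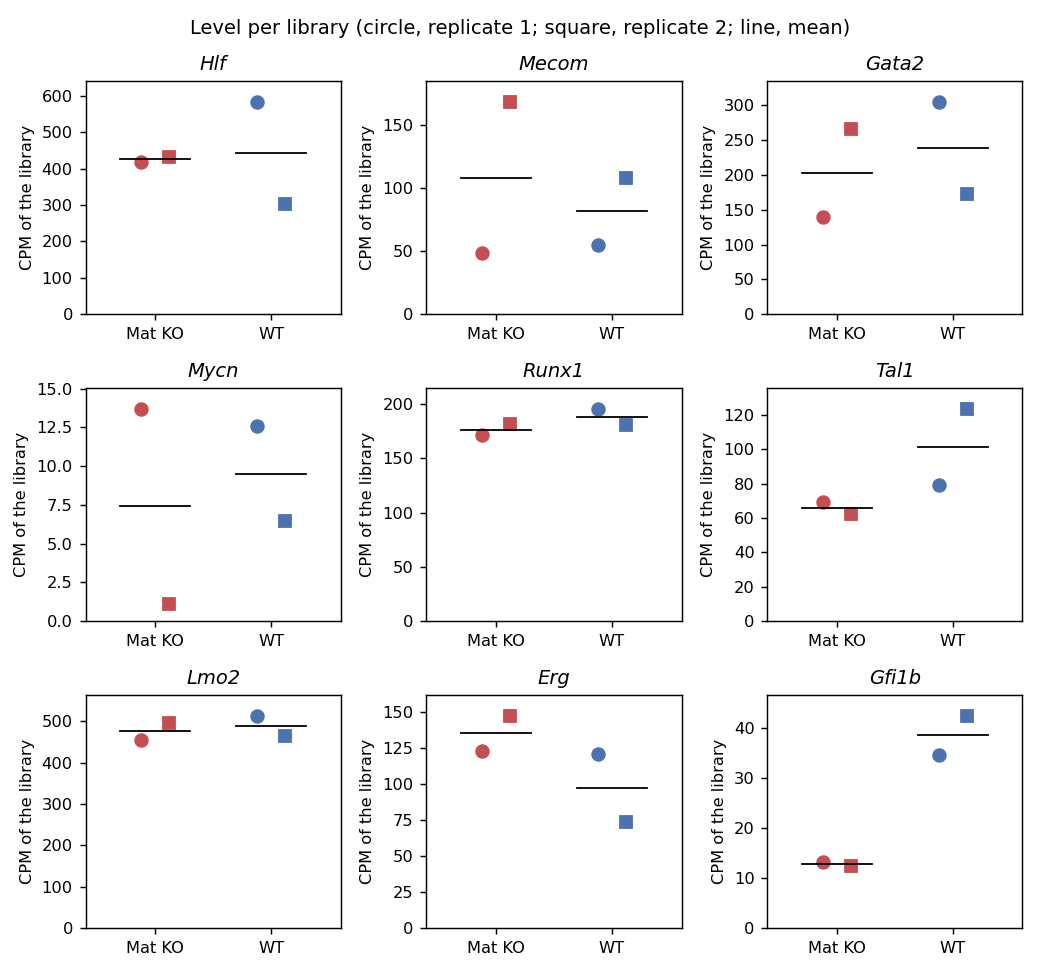
Level of each of the 9 members in each library, in CPM on linear axes that start at 0; red symbols are Mat KO libraries, blue symbols are WT libraries, circles are replicate 1, squares replicate 2 and lines the mean of 2. Gfi1b sits at 13.2 and 12.4 CPM in Mat KO against 34.6 and 42.4 CPM in WT, while Lmo2 and Runx1 lie at like heights in all 4 libraries.

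Hlf and Lmo2 were the most widely detected members. Hlf, the PAR bZIP factor of primitive HSC, had 796 and 763 UMIs (419 and 431 CPM) in Mat KO against 1852 and 981 UMIs (582 and 302 CPM) in WT, and was present in 165 of 188 cells (87.8%). The Mat KO values lay between the WT values, and the log2 fold change, -0.02 with an SE of 0.31 (2 libraries a genotype; edgeR adjusted p = 0.993), was smaller than its error. Lmo2, the bridging subunit of the Tal1 complex, had 867 and 877 UMIs (456 and 496 CPM) in Mat KO against 1635 and 1516 UMIs (514 and 466 CPM) in WT. It was present in 178 of 188 cells (94.7%), the genotypes overlapped, and its log2 fold change was -0.01 (SE 0.23, edgeR adjusted p = 0.996).

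Mecom differed more between libraries of a genotype than between genotypes. It had 92 and 297 UMIs (48.4 and 168 CPM) in Mat KO against 174 and 352 UMIs (54.7 and 108 CPM) in WT, a log2 fold change of 0.45 (SE 0.55, edgeR adjusted p = 0.900). The highest and the lowest level were both in Mat KO libraries, 3.47-fold apart, against 1.98-fold between WT libraries. Without Mat KO replicate 2 the log2 fold change was -0.74. A cell of Mat KO library 2 held 74 of that library's 297 Mecom UMIs (24.9%), and the 5 leading cells together held 75.1%.

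The DNA-binding heptad members gave no call. Gata2 had 265 and 471 UMIs (139 and 266 CPM) in Mat KO against 968 and 561 UMIs (304 and 172 CPM) in WT, with overlapping genotypes (log2 fold change -0.19, SE 0.37; edgeR adjusted p = 0.945). Runx1 had 326 and 321 UMIs (172 and 181 CPM) in Mat KO against 622 and 588 UMIs (195 and 181 CPM) in WT, with all 4 libraries within 1.14-fold (log2 fold change -0.06, SE 0.28; edgeR adjusted p = 0.984). Both Runx1 levels in Mat KO lay within or just below the WT range. The lineage marker cells held 20.6% and 13.7% of Runx1 UMIs in Mat KO against 5.14% and 0.85% in WT. Without such cells at limits of 1% and 0.5% the Runx1 log2 fold change was -0.13 and -0.50 (edgeR adjusted p = 0.976 and 0.877). Tal1, the helix-loop-helix partner of Lmo2, had 132 and 110 UMIs (69.5 and 62.2 CPM) in Mat KO against 252 and 402 UMIs (79.2 and 124 CPM) in WT. Both Mat KO libraries were below both WT libraries, and the log2 fold change was -0.59 (SE 0.39, edgeR adjusted p = 0.761), or -1.14 with cells thinned to equal depth (adjusted p = 0.532) and -0.24 without WT replicate 2. Erg, the ETS member, went the other way, with 234 and 261 UMIs (123 and 148 CPM) in Mat KO against 386 and 240 UMIs (121 and 73.8 CPM) in WT (log2 fold change 0.51, SE 0.36; edgeR adjusted p = 0.783). Mat KO library 1 and WT library 1 were almost level for Erg, so its lack of overlap rests on a gap of 123 against 121 CPM, and without WT replicate 2 the log2 fold change was 0.19.

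Mycn and Gfi1b were the sparsest members. Mycn, the MYC family member, had 26 and 2 UMIs (13.7 and 1.13 CPM) in Mat KO against 40 and 21 UMIs (12.6 and 6.45 CPM) in WT, in 20 of 188 cells. The WT libraries lay between the Mat KO libraries, a cell of WT library 2 held 81.0% of that library's Mycn UMIs, and the log2 fold change of -0.33 had an SE of 1.31 (edgeR adjusted p = 0.978). Without Mat KO replicate 2 it was 0.53. Gfi1b, the repressor, had 25 and 22 UMIs (13.2 and 12.4 CPM) in Mat KO against 110 and 138 UMIs (34.6 and 42.4 CPM) in WT, in 37 of 188 cells. Both Mat KO libraries were below both WT libraries, and the log2 fold change of -1.55 (SE 0.66) did not pass (edgeR adjusted p = 0.602).

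In WT library 2 most Gfi1b UMIs lay in cells that also held Gata1, in WT library 1 fewer did, and in Mat KO none. Gata1 is the GATA factor of erythroid and megakaryocytic cells. It had 5 and 11 UMIs in 1 and 1 cells of Mat KO, against 40 and 81 UMIs in 3 and 8 cells of WT (log2 fold change -2.04, SE 1.05; edgeR adjusted p = 0.693). No Gfi1b UMI of either Mat KO library was in a cell with Gata1, against 45 of 110 (40.9%) and 112 of 138 (81.2%) Gfi1b UMIs in WT. In cells without Gata1, Gfi1b stood at 13.6 and 13.1 CPM in Mat KO against 24.4 and 11.1 CPM in WT, so the genotypes overlapped and the log2 fold change was -0.39 (edgeR adjusted p = 0.964). Over all kept cells, those with Gata1 included, the Gfi1b log2 fold change with every cell weighted alike was -0.34 (limma adjusted p = 0.908). The summed erythroid list in cells with Gata1 stood at 1927 and 1197 CPM in Mat KO against 2670 and 5162 CPM in WT, and in cells without Gata1 at 735 and 773 CPM in Mat KO against 959 and 999 CPM in WT. These cells were also deeper, with a median of 61245 and 87710 UMIs in Mat KO against 130164 and 96890 in WT. The split by Gata1 was chosen after Gfi1b values were seen. Fewer cells of a type and less RNA per cell cannot be told apart in library sums, and at 1 Gata1 cell in each Mat KO library the share of such cells is not measured closely.

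Shares of cells with a UMI were lower in the shallower Mat KO libraries for several members. Cells with at least 1 UMI of Gfi1b were 7 of 44 (15.9%, exact binomial 95% interval 6.64% to 30.1%) and 4 of 48 (8.33%, 2.32% to 19.98%) in Mat KO, against 11 of 48 (22.9%, 12.03% to 37.3%) and 15 of 48 (31.2%, 18.7% to 46.3%) in WT. Intervals cover counting error alone. Tal1 had a UMI in 45.5% and 52.1% of Mat KO cells (20 and 25 cells), against 60.4% and 72.9% of WT cells (29 and 35 cells). The shares of Mecom, Gata2, Tal1, Lmo2 and Gfi1b did not overlap between genotypes and were lower in Mat KO, 5 of 9 members, against 47% of all genes tested without overlap and 42.4% without overlap and lower in Mat KO. For each of these 5 the exact two-sided permutation test over libraries gave p = 0.333, the smallest that 2 against 2 can give.

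At equal depth some of these gaps closed and others stayed. Thinning also left out the shallowest cells, more of them in Mat KO, and the part of each step was not tested. Mecom, at 26.8% and 39.3% in Mat KO against 26.2% and 44.6% in WT, and Gata2, at 52.1% and 67.6% in Mat KO against 66.5% and 59.95% in WT, then overlapped. Tal1 stood at 27.8% and 30.5% in Mat KO against 37.5% and 50.3% in WT, and Gfi1b at 9.57% and 5.27% in Mat KO against 10.6% and 17.2% in WT. Lmo2 stood at 75.9% and 82.2% in Mat KO against 88.4% and 85.8% in WT, while Runx1 was higher in Mat KO, at 61.1% and 61.5% against 56.9% and 56.1% in WT. These 4 members did not overlap, against 38.8% of all genes tested without overlap and 24.4% without overlap and lower in Mat KO (exact permutation p = 0.333 for each). Hlf, at 68.7% and 81.4% in Mat KO against 84.7% and 67.1% in WT, overlapped, as did Erg, at 41.5% and 46.5% in Mat KO against 51.0% and 32.1% in WT. Mycn, at 7.13% and 1.69% in Mat KO against 9.80% and 3.42% in WT, overlapped as well.

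**Figure D2:**
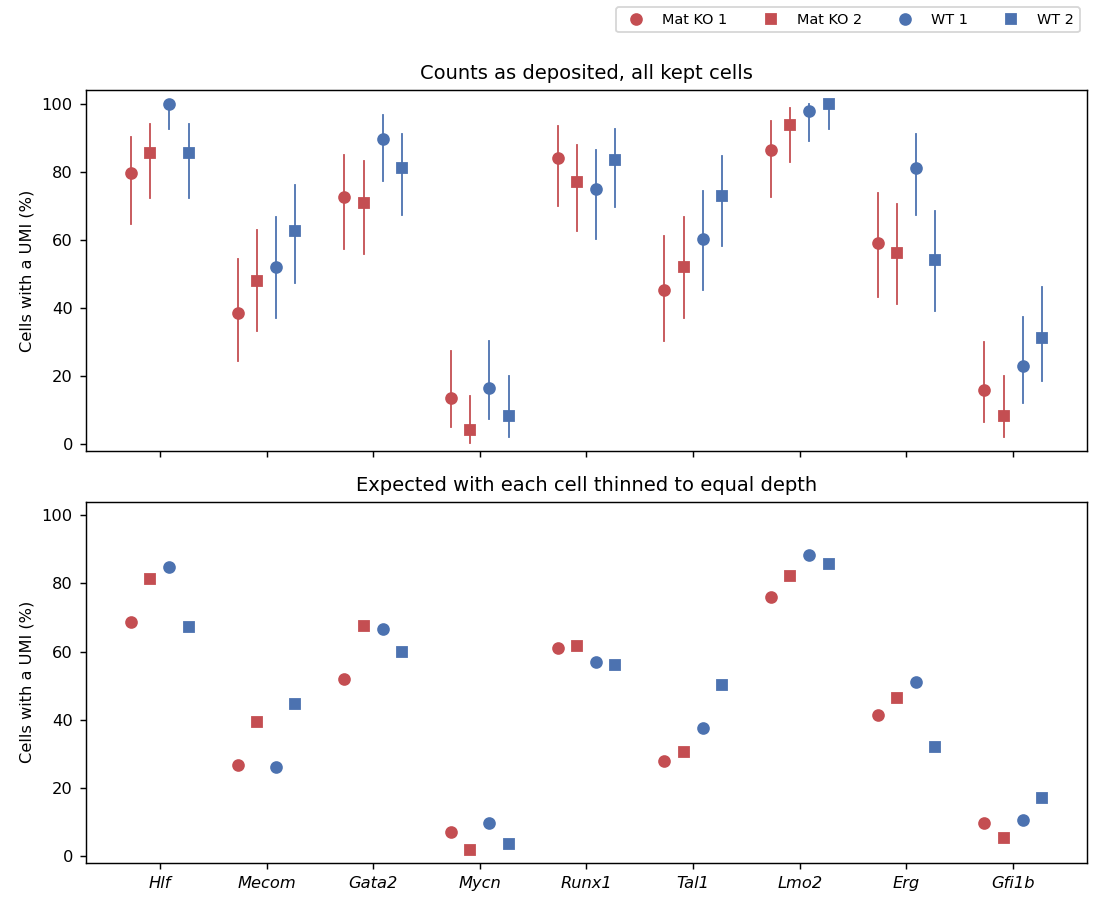
Share of cells with a UMI of each member, in percent, per library (red, Mat KO; blue, WT; circles, replicate 1; squares, replicate 2). Above are all kept cells with counts as deposited (bars, exact binomial 95% intervals). Below are the cells with at least 8877 UMIs, each thinned to 8877. Mecom and Gata2, which stand apart by genotype above, overlap below.

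A cell typically held several of the factors at once. The median cell had UMIs of 5 and 5 members in Mat KO libraries against 6 and 6 in WT libraries, and the mean was 4.95 and 4.96 in Mat KO against 5.96 and 5.79 in WT. With cells thinned the means were 3.71 and 4.16 in Mat KO against 4.32 and 4.17 in WT, so the genotypes were a gap of 4.16 against 4.17 apart at the narrowest. A single cell in Mat KO library 1 and another in WT library 1 held all 9. Gata2, Runx1, Tal1, Lmo2 and Erg were found together in 9 and 12 cells of Mat KO, where the product of the 5 shares gives 6.24 and 7.20 cells, against 19 and 12 cells of WT, where it gives 15.5 and 12.8. With cells thinned, the same 5 are expected together in 1.28 and 2.20 cells of Mat KO (product 1.06 and 1.99) against 2.85 and 2.77 cells of WT (product 2.94 and 2.05).

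**Figure D3:**
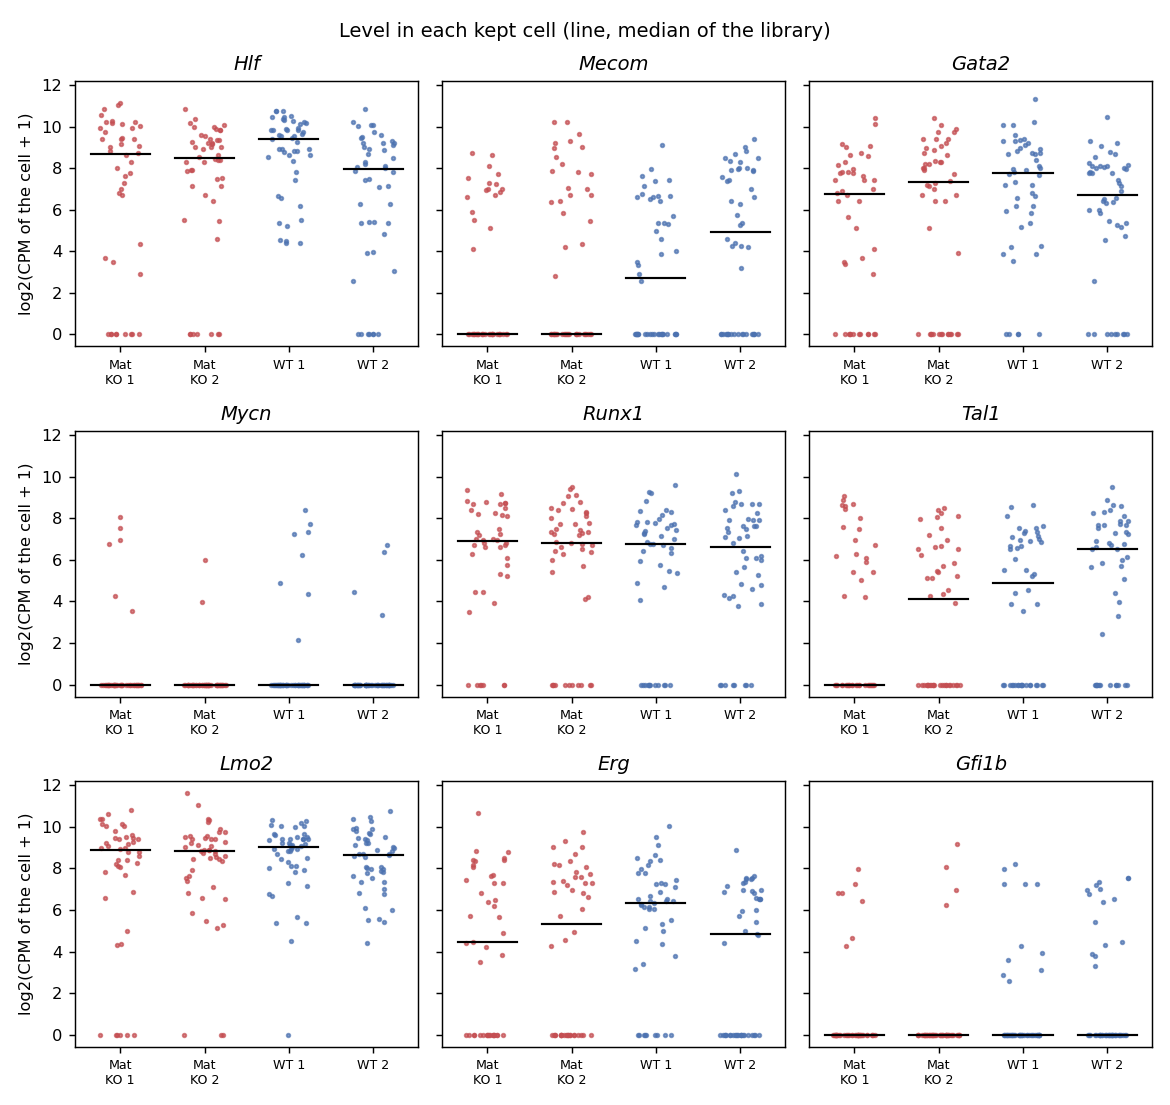
Level of each member in each kept cell, as log2(CPM of the cell + 1), by library (red, Mat KO; blue, WT); lines are library medians and points at 0 are cells with no UMI. Hlf and Lmo2 have UMIs in most cells of all 4 libraries, whereas Mycn and Gfi1b have a median of 0 in each.

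Across cells Hlf varied with Lmo2, Gata2 and Mecom, while Runx1 and Erg did not follow it. All coefficients are Pearson's r on log2(CPM + 1) within a library, over 44 to 48 cells of that library that differ in depth and were not thinned, and are given as descriptions. Hlf and Lmo2 correlated at 0.26 to 0.71 in the 4 libraries (mean 0.55), Hlf and Gata2 at 0.21 to 0.55, Hlf and Mecom at 0.21 to 0.49, and Gata2 and Lmo2 at 0.32 to 0.46. Gata2 with Lmo2 was the single pair of 36 over 0.3 in every library. Mecom and Gata2 ran at -0.15 to 0.32 with each other. Runx1 correlated with Hlf at -0.21 to 0.13 and with Lmo2 at -0.25 to 0.31, and Erg with Hlf at -0.23 to 0.32. With Mecom, Runx1 (0.11 to 0.27) and Erg (0.12 to 0.33) were positive in all 4 libraries. Of the 36 pairs, 13 had a positive coefficient in all 4 libraries and none a negative one in all 4, over a range of -0.35 to 0.71. Mycn with Runx1 gave that lowest value.

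Co-detection ranked the pairs differently. With cells thinned, 11 of 36 pairs were found in more cells than the product of their shares in all 4 libraries, against 6 pairs with counts as deposited and 5 in lineage-low cells. The 11 included Hlf with each of Mecom, Gata2, Mycn, Tal1 and Lmo2, and the ratio to the product over the libraries was 1.21 for Hlf with Mecom and 1.12 for Hlf with Lmo2, beside a median of 1.08 over the 36 pairs. Hlf was in all 48 cells of WT library 1 and Lmo2 in all 48 of WT library 2, which fixes their ratios as deposited at 1 there, so no pair with either could count among the 6. Mycn and Tal1 had the highest thinned ratio, 1.80 (mean r 0.24). It rests on few cells, as the pair is expected together in 2.21 and 0.61 thinned cells of Mat KO against 2.44 and 0.88 of WT. With counts as deposited, 17 of the 20 cells with Mycn also held Tal1 where the product gives 11.5, a ratio of 1.48. Mycn and Gfi1b followed with a thinned ratio of 1.36 (mean r 0.04), but shared 6 cells as deposited and were above the product in 2 of 4 libraries with cells thinned. A ratio cannot exceed 1 over the larger of the 2 shares. Widely detected members such as Lmo2 thus have a lower ceiling than sparse ones, so ratios of different pairs are not on a common scale. Tal1 and Erg were the single pair below the product in all 4 libraries with cells thinned, at 0.89. By library, 29 and 23 of the 36 pairs were above the product in Mat KO against 21 and 28 in WT with cells thinned, so the genotypes overlapped.

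**Figure D4:**
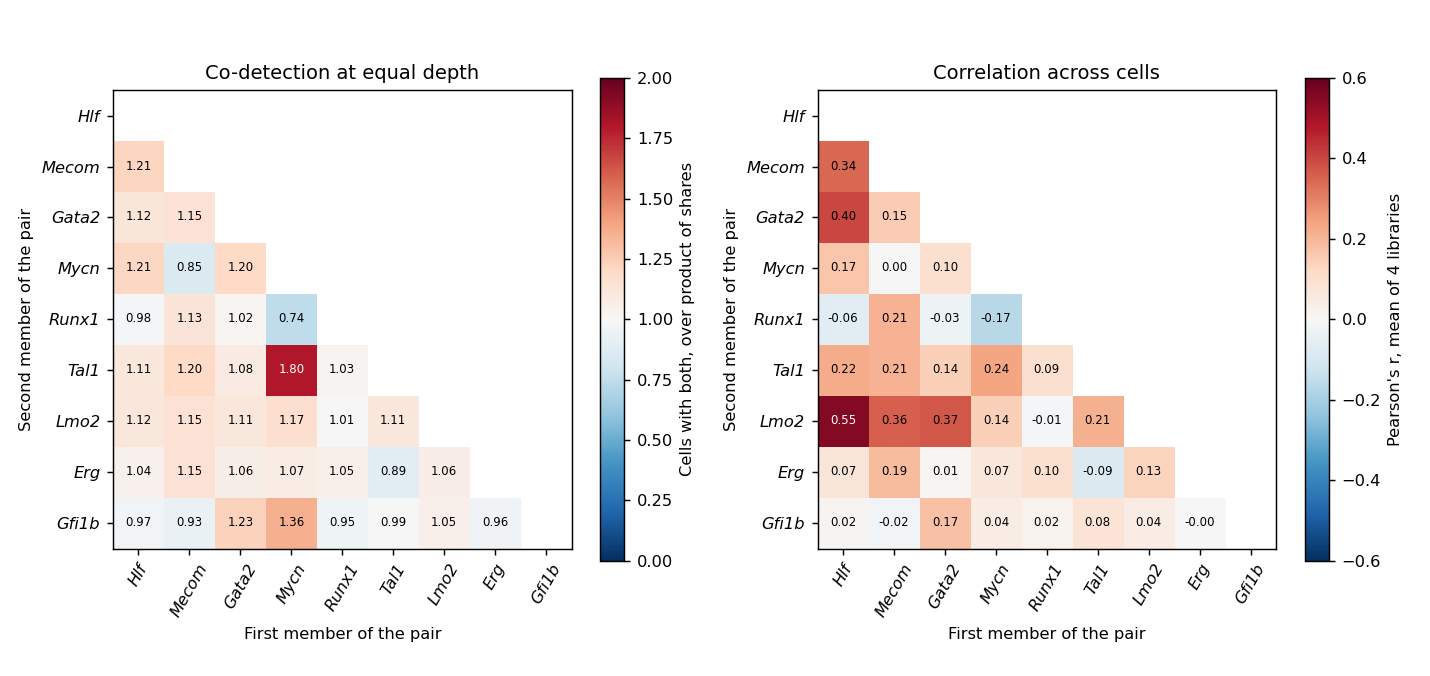
Pairs of members across cells: left, cells with both members over the product of their shares, summed over 4 libraries with cells thinned to 8877 UMIs; right, Pearson's r of log2(CPM + 1), mean of 4 libraries. Red is above and blue below the neutral value (1 on the left, 0 on the right), and Hlf with Lmo2 has the highest mean r, 0.55.

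The same members followed the rest of the stem cell programme. Against the summed stem cell marker list, which holds none of the 9, Lmo2 correlated at 0.56 to 0.77 and Hlf at 0.43 to 0.78 in the 4 libraries, Gata2 at 0.25 to 0.43 and Mecom at 0.24 to 0.42. Runx1, at -0.22 to 0.11, and Erg, at -0.26 to 0.17, showed no steady relation. Gfi1b, at -0.41 to 0.18, had its lowest value in WT library 2, the library with 8 Gata1 cells. Against the summed B-lymphoid list Lmo2 ran at -0.46 to -0.12 and Hlf at -0.43 to -0.18. Of 6697 genes compared with each member, the gene most like Hlf was Angpt1, which encodes the ligand of the stem cell receptor Tek (mean r 0.64, lowest 0.55), followed by Ifitm1, a membrane protein of the interferon-induced family and part of the stem cell list (mean r 0.61). Ifitm1 was also the gene most like Lmo2 (mean r 0.66). Ctla2a, a cysteine protease inhibitor gene, was named for Gata2 (mean r 0.41, lowest 0.32) and Fkbp2, a prolyl isomerase gene of the endoplasmic reticulum, for Runx1 (mean r 0.35, lowest 0.32). Mecom, Tal1 and Erg had no gene over 0.3 in every library, and Mycn and Gfi1b were in fewer than 20% of cells and were not compared.

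**Figure D5:**
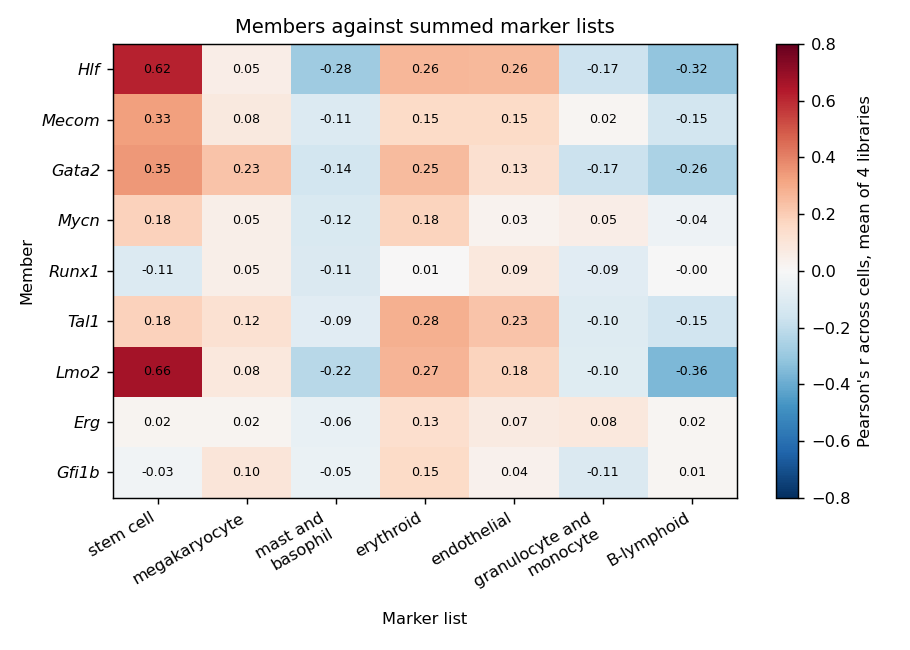
Pearson's r across cells between each member and the summed CPM of a marker list, both as log2(CPM + 1), mean of 4 libraries; red is positive and blue negative. Lmo2 (0.66) and Hlf (0.62) have the highest values, both against the stem cell list, and both are negative against the B-lymphoid list (-0.36 and -0.32).

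Members differed between the marker-defined cells. Hlf stood at 477 CPM in 173 lineage-low cells against 72.02 CPM in 8 granulocyte and monocyte marker cells and 33.4 CPM in 5 B-lymphoid marker cells, and Lmo2 at 525.5 CPM against 120.6 and 33.4 CPM. The B-lymphoid values are 5 UMIs of each gene, for Hlf all in the 2 WT cells. In granulocyte and monocyte marker cells Hlf stood at 79.2 CPM in 6 Mat KO cells and 31.4 CPM in 2 WT cells (3 UMIs). Lmo2 stood there at 136 CPM in Mat KO and 31.4 CPM in WT (3 UMIs). Runx1 did not follow Hlf and Lmo2, at 187.9 CPM in lineage-low cells against 180.1 CPM in granulocyte and monocyte and 187.0 CPM in B-lymphoid marker cells, but its B-lymphoid value joins 323 CPM in 3 Mat KO cells and 106 CPM in 2 WT cells. Erg in the B-lymphoid marker cells stood at 53.8 CPM in Mat KO (3 UMIs) and 351 CPM in WT (33 UMIs), on either side of the lineage-low values of 153 CPM in Mat KO and 95.4 CPM in WT. Gfi1b stood at 126.2 CPM in the 2 erythroid marker cells, both of WT library 2, against 29.4 CPM in lineage-low cells. It had no UMI in the 8 granulocyte and monocyte marker cells, which allows a share of such cells with a UMI of up to 37.5%, nor in the 5 B-lymphoid marker cells, which allows up to 60%. These limits are 3 over the number of cells, a rough rule at so few cells and not an exact interval. Neither limits the share of cells that express the gene. These few cells are uneven in depth, with a median of 73238.5 UMIs in granulocyte and monocyte, 19980 in B-lymphoid and 41186 in lineage-low cells. In lineage-low cells alone, Hlf stood at 518 and 470 CPM in Mat KO against 616 and 323 CPM in WT, and Gfi1b at 16.3 and 14.3 CPM in Mat KO against 36.7 and 36.3 CPM in WT. Of the cells with Gata1, 0 of 3 in WT library 1 and 2 of 8 in WT library 2 were erythroid marker cells, so leaving those out does not leave out most Gata1 cells. Without the lineage marker cells the log2 fold change was 0.10 for Hlf, -0.45 for Tal1, 0.71 for Erg and -1.23 for Gfi1b, with no member called (lowest edgeR adjusted p among these 0.783, for Erg). At the 0.5% limit Gfi1b was at -0.88 (edgeR adjusted p = 0.919). Barcodes without cells held 3 and 2 UMIs of the 9 members in Mat KO against 1 and 1 in WT.

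Cells with more transcripts of the proliferation genes Mki67 and Top2a had less Hlf, Mecom and Lmo2. Cells of each library were split at the library's median CPM of those 2 genes, a split chosen after seeing that most cells held a UMI of them. Hlf averaged 295 CPM in the upper against 822 CPM in the lower cells of Mat KO library 1 and 383 against 541 CPM in library 2, and 665 against 725 and 176 against 549 CPM in WT libraries 1 and 2. Mecom averaged 23.8 against 95.8 and 78.1 against 237 CPM in Mat KO libraries, and 25.8 against 76.0 and 82.2 against 169 CPM in WT libraries. Lmo2 averaged 340 against 714 and 489 against 607 CPM in Mat KO libraries, and 451 against 613 and 389 against 585 CPM in WT libraries. All 3 were lower in the upper cells in 4 of 4 libraries, also as shares of cells at equal depth. The other members went either way, with Gfi1b higher in the upper cells in 3 of 4 libraries. A split by any UMI of the 2 genes was less steady, with 5 and 10 cells without one in Mat KO and 7 and 5 in WT. In WT library 1 Mecom stood at 54.9 CPM with such a UMI against 51.0 without, and Lmo2 at 515 against 500. Hlf was level in Mat KO library 2 (431 against 432 CPM). In the remaining libraries all 3 were lower in cells with a UMI. At equal depth, though, Mecom in WT library 2 was in 46.1% against 33.2% of cells, and Lmo2 in Mat KO library 1 in 76.1% against 74.1%.

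Genes that work with the 9 factors were read in 6 lists (105 genes, 100 of them tested), and none passed edgeR's test in either direction. Of the 100, 55 were higher and 45 lower in Mat KO with a median log2 fold change of 0.08, beside a median of -0.01 over all genes tested, where 5271 of 10663 were higher. At an unadjusted p under 0.05 the lists held 8 of their 100 tested genes, near the 7.82% of all genes tested, so the genes named below by smallest p stand out no more than the background does. Among 16 partners in DNA-binding complexes (9 higher, 7 lower, median 0.03), the 3 of smallest p were Spi1, the myeloid ETS factor (log2 fold change 0.80), Tcf3, the E protein that pairs with Tal1 (-0.68), and Gata1 (-2.04). Spi1 stood at 157 and 148 CPM in Mat KO against 121 and 58.1 CPM in WT, beside the higher granulocyte and monocyte list given above; its log2 fold change was 0.44 without lineage marker cells at 1% and 0.36 without WT replicate 2. Tcf3 stood at 78.9 and 75.8 CPM in Mat KO against 118 and 135 CPM in WT.

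Among 12 corepressors of Gfi1b (6 higher, 6 lower, median -0.01), Rcor2 stood at 23.7 and 10.7 CPM in Mat KO against 3.46 and 5.22 CPM in WT (edgeR adjusted p = 0.704), while Hmg20b had a log2 fold change of -0.61 and Phf21a of 0.48, all 3 being subunits of CoREST-type complexes. Among 18 tested relatives of the factors (13 higher, 5 lower, median 0.41), Lmo4, a LIM-only relative of Lmo2, stood at 169 and 76.9 CPM in Mat KO against 44.6 and 55.3 CPM in WT (log2 fold change 1.32, SE 0.44; edgeR adjusted p = 0.501), with 1.77 without Mat KO replicate 2 (adjusted p = 0.0442, in a fit that called 123 genes), 0.66 without Mat KO replicate 1 (adjusted p = 0.755) and 0.76 without lineage marker cells at a limit of 0.5%. Elf1, an ETS relative of Erg, stood at 863 and 1069 CPM in Mat KO against 647 and 627 CPM in WT (log2 fold change 0.63, SE 0.22; edgeR adjusted p = 0.537), and the ETS factor Ets1 had a log2 fold change of 1.16, or 0.68 without Mat KO replicate 1. Among 10 tested genes of the MYC network (6 higher, 4 lower, median 0.32), the MYC antagonist Mxd1 stood at 176 and 89.3 CPM in Mat KO against 66.6 and 39.3 CPM in WT (log2 fold change 1.35, edgeR adjusted p = 0.497). Without lineage marker cells Mxd1 was at 0.58, 0.10 and 0.82 at limits of 1%, 0.5% and 2%, and without Mat KO replicate 1 at 0.79. Mga was at -0.56 and Mlx, a partner of the Mxd and Mondo proteins, at 1.15, or -0.0372 without Mat KO replicate 1.

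Among 26 other stem cell factors (15 higher, 11 lower, median 0.16), Ikzf2, the Ikaros family member Helios, had the smallest p of all 105 genes, at 143 and 145 CPM in Mat KO against 71.9 and 46.7 CPM in WT (log2 fold change 1.31, SE 0.37; edgeR adjusted p = 0.343). Both Mat KO libraries were above both WT libraries, and the nuclear receptor gene Rora (1.21) and the zinc finger gene Zbtb16, also known as Plzf (2.19), had the next smallest p of that list. Rora was at 0.64 without Mat KO replicate 2, and Zbtb16, with 3 and 36 UMIs in WT, was at 4.80 without WT replicate 2 and 1.31 without WT replicate 1. Among 19 tested genes described as targets of the factors (7 higher, 12 lower, median -0.33), Cad, the pyrimidine synthesis enzyme driven by MYC proteins, stood at 14.7 and 13.0 CPM in Mat KO against 28.6 and 62.4 CPM in WT (log2 fold change -1.68, SE 0.66; edgeR adjusted p = 0.584), or -1.01 without WT replicate 2 and -0.77 without lineage marker cells at the 0.5% limit. Npm1, nucleophosmin, stood at 1464 and 1503 CPM in Mat KO against 1871 and 2024 CPM in WT (log2 fold change -0.36), and the endothelial and stem cell receptor gene Tie1 had a log2 fold change of -1.07, or -0.49 without Mat KO replicate 1 and -2.07 without Mat KO replicate 2.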

How the data were processed

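Single HSC of 2 Mat KO and 2 WT libraries were profiled with a modified STRT-seq method, per the labels' protocols, in which an oligo-dT primer adds a cell barcode and a UMI. The authors deposited raw UMI counts per gene and barcode (96 barcodes a library). TopHat2 2.0.12, HTSeq and mm10 are named in the submitters' processing notes, with no role given. The 95 spike-in rows were left out of library sizes and tests. Counts of kept cells (at least 1000 detected genes) were summed per library and tested with edgeR 4.0.16 in R 4.3.3 (quasi-likelihood test, TMM, filterByExpr, genotype as the only term, Benjamini-Hochberg adjustment over all genes tested, threshold 0.05). A log2 fold change is Mat KO over WT. Library totals ran from 1768647 to 3253608 UMIs, and UMI intervals cover counting error alone. Cells are not replicates.

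The test was first tested on simulated counts. It called 12 of 51 genes simulated at a log2 fold change of -2 and 16 of 35 at -4. Of simulated increases it called 25 of 52 at 2 and 46 of 48 at 4, with 3 of 9907 unchanged genes. Many true decreases would thus be missed. Shares and co-detection at equal depth used the hypergeometric expectation at 8877 UMIs, the 10th percentile of kept cells. Pearson's r used log2(CPM + 1). CPM counts 3' ends, so it was not divided by gene length. DESeq2 1.42.0 and limma 3.58.1 gave alternatives, with other normalization, filters, cells and replicates left out. Genes were named by a rule: the 9 members, per list every gene that passed or else the 3 of smallest p, and per member in at least 20% of cells the 2 genes most like it if r was over 0.3 in every library. No doublet caller was run, since cells were picked singly. Barcode numbers recur between libraries: 44 of 48 held a kept cell in each of the 4, and same-numbered cells of different libraries had a mean r of 0.00829 to 0.0575 between their deviations over genes (highest 0.261). Cells of unlike numbers had a mean r of -0.00131 to -0.000191, and the cause of the gap was not tested. Promoter sequences are RefSeq's (8 of 9 members matched). The members and lists were chosen with earlier results of these data known.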

Additional observations from a re-analysis of the deposited data

How the results depend on the processing

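No member passed in any of the alternatives run (16 for each member, 15 for Mycn, which was too low to test after thinning), and Tal1 (log2 fold change -1.14 to -0.24), Erg (0.19 to 0.90) and Gfi1b (-1.70 to -0.34) kept their direction in all of them. The number of all genes called was 8, and 149 without an expression filter, 109 with DESeq2, 5 with at least 2000 genes per cell, 4 with cells thinned, 4, 1 and 4 without lineage marker cells at limits of 1%, 0.5% and 2%, 2 by limma with cells weighted alike and 0 without each gene's leading cell (740 at an unadjusted p under 0.05); the cause was not tested. Leaving out each replicate in turn gave 17 to 123 genes, lowest without WT replicate 2. The labels do not say whether equal replicate numbers of the genotypes share a day or batch. Replicate differences of the genotypes correlated at -0.0169 over genes, which cannot settle it. The fit with the replicate block called 109 genes (90 higher, 19 lower in Mat KO) and no member. Hlf changed sign with the replicate block (0.0519), thinning (0.0707), without lineage marker cells at 1% (0.10), 0.5% (0.20) and 2% (0.0886), without leading cells (0.0707) and with cells alike (0.0179). Lmo2 did so with RLE factors (0.0069), DESeq2 (0.0041), thinning (0.11), the lineage limits of 1% (0.10), 0.5% (0.18) and 2% (0.095) and with cells alike (0.0775). Gata2 (0.11) and Runx1 (0.0086) changed sign with thinning, Runx1 (0.11) with cells alike, and Npm1 (0.0101) at the 0.5% limit. Leaving out a replicate gave -0.43 to 0.52 for Hlf, -0.74 to 1.08 for Mecom, -0.76 to 0.26 for Gata2, -2.98 to 0.53 for Mycn, -0.0937 to 0.0575 for Lmo2 and -0.0372 to 1.79 for Mlx. The difference in share of cells (Mat KO minus WT) was -8.24 percentage points for Runx1 with at least 3 UMIs and 2.44 for Erg with cells thinned, both opposite to the deposited counts. Pairs co-detected above the product in all 4 libraries numbered 6, or 11 with cells thinned, where pairs with Hlf or Lmo2 could count as well. With 2 libraries a genotype, the SE of a member's log2 fold change ran from 0.23 to 1.31, which limits what could be called. In fits that leave out a library, the lone library of that genotype is assumed to vary like the others.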

Other observations

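The cell with the most UMIs of a member was often the same cell. In Mat KO library 2, barcode 26 led Hlf, Mecom, Gata2 and Tal1. In WT library 1, barcode 48, the deepest cell of the series at 287142 UMIs, led Runx1, Lmo2, Erg and Gfi1b. Barcode 16 led Lmo2 in Mat KO libraries 1 and 2 and in WT library 2, and Hlf in Mat KO library 1 and WT library 1. Levels of a member in same-numbered cells of different libraries correlated at -0.35 to 0.34 over 44 to 48 barcodes. Why barcode 16 recurs was not tested.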
